A study of Mus musculus with 24 samples.

Results

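Oligodendrocytes wrap cortical axons in myelin, and beyond the proteins that build the sheath itself they switch on, late in maturation, a set of genes for coupling, cytoskeleton, axon contact and metabolism. Followed here were the gap junction genes of oligodendrocytes and other genes of mature oligodendrocytes that do not encode structural myelin proteins. The set held 9 genes, Gjb1, Gjc3, Cmtm5, Tspan2, Ermn, Ppp1r14a, Hapln2, Aspa and Trf, out of 25135 genes listed at both ages. They were chosen by name for their known roles, with earlier results of these data known. All 9 were listed in both tables, all 9 passed the filter on low values at P30, and 7 passed it at P1.

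RNA was sequenced from nuclei of mouse cortex at P1 and at P30, days after birth, with 6 WT and 6 Kdm6b-cKO libraries at each age and 24 in all. WT animals were Kdm6b wt/wt and Kdm6b-cKO animals were Emx1-Cre; Kdm6b f/f littermates on a C57BL/6 background, and both genotypes carried the SUN1-GFP reporter, by which GFP-positive nuclei were sorted. Kdm6b encodes a demethylase of histone H3 lysine 27. Emx1-Cre acts in dorsal telencephalic progenitors, whose descendants include glutamatergic neurons, astrocytes and part of the cortical oligodendrocytes, so the deletion was not limited to oligodendrocytes and each library was a mixture of cell types. The labels do not say whether libraries came from separate animals or from pools, and p-values therefore measure the spread between these libraries, which may be technical. In such mixtures, fewer cells of a type and less RNA per cell cannot be told apart.

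Gap junctions of oligodendrocytes pass ions and small molecules between neighbouring cells and between layers of a sheath. Gjb1 encodes a connexin of the uncompacted parts of myelin and Gjc3 encodes a connexin of myelin membrane that faces the axon. Astrocytes build their gap junctions from Gja1 and Gjb6. Cmtm5 and Tspan2 encode membrane proteins found in myelin, Ermn an actin-binding protein of late oligodendrocytes, and Ppp1r14a an inhibitor of myosin phosphatase. Hapln2 encodes a link protein of the matrix at nodes of Ranvier, Aspa the enzyme that splits N-acetylaspartate into acetate and aspartate, and Trf transferrin, the iron carrier, which oligodendrocytes make in the brain and which choroid plexus makes too.

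Values are FPKM, fragments per kilobase of transcript, scaled to the mapped fragments of the library. Because FPKM are per length, levels can be set side by side between genes. Libraries are named by the numbers 0 to 5 that the tables give them within each group. Depth after the authors' scaling, read from the step that 1 read makes in low FPKM values and assuming fragments of 200 bases, was 822000 to 3910000 reads in WT and 192000 to 2860000 in Kdm6b-cKO at P1, and 5130000 to 8320000 in WT and 1940000 to 8060000 in Kdm6b-cKO at P30. At P1, Kdm6b-cKO libraries 0 and 5 were the shallowest, with 343000 and 192000 reads. Libraries also stood apart in other ways. At P1, 4 WT libraries and Kdm6b-cKO library 5 had more than 100 olfactory receptor genes above 0 FPKM, and at P30, WT library 0 and Kdm6b-cKO libraries 0, 1 and 5 had under 1000 FPKM of the 45S ribosomal RNA precursor while the other 8 had more. As a check of tissue, 16 markers of glutamatergic neurons summed to 719.5 to 1144 FPKM in WT and 467.2 to 1017 in Kdm6b-cKO at P30, and 10 structural myelin genes to 268.6 to 539.7 and 139.6 to 210.8. Kdm6b itself read 24.9 to 51.0 FPKM in WT and 15.0 to 38.4 in Kdm6b-cKO at P1, and 16.9 to 26.4 in WT and 17.5 to 28.1 in Kdm6b-cKO at P30. One value per gene includes exons outside a deletion, so this did not check the genotypes, and libraries are called by their labels throughout.

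In the mm9 build, which the authors used, GENCODE places Gjb1 at chrX:98571717-98580968 and Gjc3 at chr5:138395037-138404187. Cmtm5 lies at chr14:55555307-55558093, Ppp1r14a at chr7:30074339-30078409, Ermn at chr2:57897524-57905275 and Aspa at chr11:73118494-73140309. Trf lies at chr9:103106331-103132774, while Tspan2 (chr3:102538452-102576215) and Hapln2 (chr3:87825672-87831505) share a chromosome. The end of Ermn overlaps Galnt5 on the opposite strand by 748 bases and the start of Tspan2 overlaps 2410057H14Rik on the opposite strand by 889 bases, and since the counting is not stated to use strand, reads in these stretches could not be assigned to one gene.

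Promoter windows of 300 bases, 250 before and 50 after each RefSeq start (GRCm38.p6), were matched for 8 of the 9 genes, with 13 start sites in all. They were searched on both strands for AACAAT, a core motif of SOX factors, and for ACAAAG, a related 6-base motif. AACAAT was found at 3 of the 13 start sites and ACAAAG at 3, against 10.7% and 18.7% of all 32851 promoter windows. In all, 5 start sites, of Gjb1 (a pair of sites), Aspa, Tspan2 and Hapln2, held at least 1 of the motifs, no matches overlapped, and 27.0% of all windows held at least 1. The sequences below are those of both genes called lower at P30, Cmtm5 and Ppp1r14a, which held neither motif, of the one start site that held both, Gjb1, and of the match in Hapln2. Each runs from 5′ to 3′ on the strand of its gene, was taken from RefSeq and placed by an exact match in mm9, and has motif matches in capitals. The first 3 are the 250 bases directly before a start (chr14:55555057-55555306, plus strand, for Cmtm5, chr7:30074089-30074338, plus strand, for Ppp1r14a, and chrX:98571465-98571714, plus strand, for Gjb1), and the last is 30 bases around the match (chr3:87831473-87831502, minus strand), which GENCODE counts as part of the gene.
Cmtm5: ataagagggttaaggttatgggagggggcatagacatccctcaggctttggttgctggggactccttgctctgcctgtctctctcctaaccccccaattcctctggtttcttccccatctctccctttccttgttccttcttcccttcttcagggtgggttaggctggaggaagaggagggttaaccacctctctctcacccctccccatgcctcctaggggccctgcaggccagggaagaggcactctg
Ppp1r14a: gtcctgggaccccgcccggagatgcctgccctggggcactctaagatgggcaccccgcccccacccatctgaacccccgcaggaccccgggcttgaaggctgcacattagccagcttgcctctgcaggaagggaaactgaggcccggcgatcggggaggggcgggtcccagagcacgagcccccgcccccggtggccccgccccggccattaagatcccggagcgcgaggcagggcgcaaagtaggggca
Gjb1: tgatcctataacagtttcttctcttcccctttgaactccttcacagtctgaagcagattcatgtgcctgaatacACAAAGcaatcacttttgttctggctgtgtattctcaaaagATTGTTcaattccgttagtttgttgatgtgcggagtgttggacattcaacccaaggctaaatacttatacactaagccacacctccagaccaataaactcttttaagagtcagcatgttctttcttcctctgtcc
Hapln2: cccctgttacccAACAATaggggagaagac

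At P30, all 9 genes had a lower mean FPKM in Kdm6b-cKO than in WT and a negative log2 fold change, as did 54.8% of the 13289 genes tested. Cmtm5 and Ppp1r14a were called lower by limma, for which the adjusted p had to be below 0.05 and the difference beyond 2-fold, and 0.226% of all genes met this (0.286% by the adjusted p alone, which the same pair passed). The same pair were the genes whose 6 Kdm6b-cKO libraries all lay below all 6 WT libraries (1.05% of all genes). Of the 9, 7 had an unadjusted p under 0.05 (7.37% of all genes on the lower side) and 6 had a log2 fold change below -1 (5.14% of all genes). The median log2 fold change of the 9 was -1.17, against -0.05 over all genes tested. Fold changes are Kdm6b-cKO against WT on the log2(FPKM + 0.1) scale, and adjusted p-values are limma's after Benjamini-Hochberg adjustment across every gene tested at that age. The added 0.1 shrinks ratios of low values, but single values at or near 0 weigh heavily on this scale. As a log2 fold of arithmetic means, Aspa at P30 was -1.42 rather than -2.08. At P1, Gjb1 was -0.33 rather than -1.28 and Gjc3 0.87 rather than -0.45. The other log2 folds of tested genes among the 9 moved by less than their SE.

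**Figure D1:**
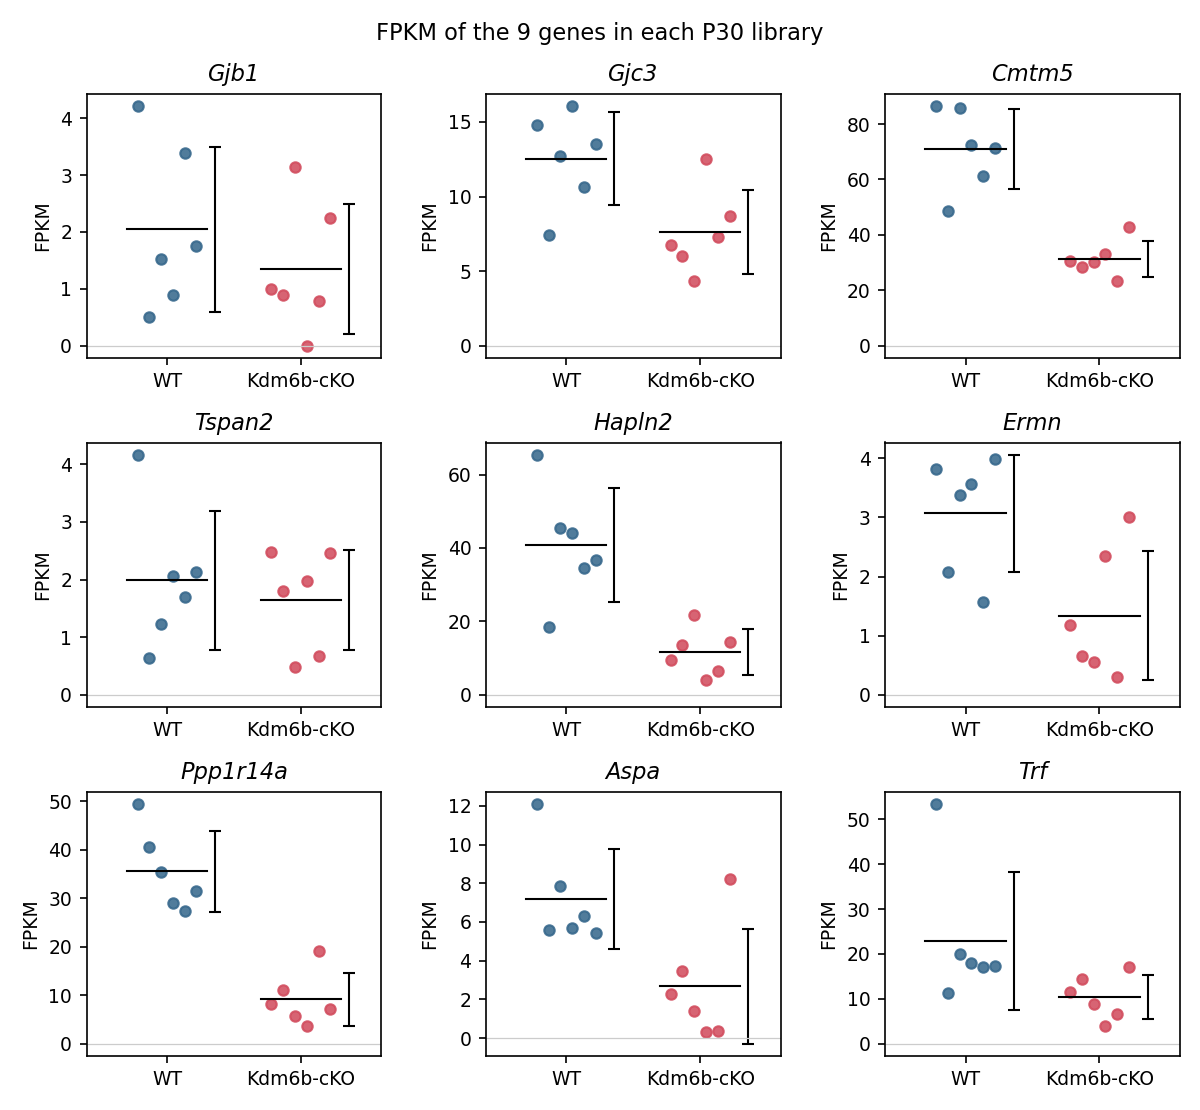
FPKM of each of the 9 genes (vertical axes, each with its own range) in the 6 WT and 6 Kdm6b-cKO libraries at P30; points are libraries, horizontal lines are means and bars to the right are the SD. The groups are apart for Cmtm5 and Ppp1r14a and overlap for the other 7 genes.

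Of the connexins, Gjb1 was low and variable at P30. It ranged from 0.506 to 4.22 FPKM in WT (median 1.63) and from 0 to 3.15 FPKM in Kdm6b-cKO (median 0.947). The groups overlapped, with Kdm6b-cKO library 3 at 0 and Kdm6b-cKO library 2 above 4 of the 6 WT libraries. Its log2 fold change was -0.87 ± 0.77 (SE, 6 libraries per genotype, adjusted p = 0.689), with a 95% interval from -2.53 to 0.80. Neither a marked fall nor a small rise could be told from no change at this spread. Gjc3, the connexin of axon-facing myelin, was higher, at 7.44 to 16.1 FPKM in WT (median 13.1) and 4.32 to 12.5 in Kdm6b-cKO (median 7.03). Of the Kdm6b-cKO libraries, 4 lay below the lowest WT library and libraries 3 and 5 lay among the WT values. The log2 fold change of Gjc3 was -0.75 ± 0.26 (adjusted p = 0.245, and 0.0117 with limma's array weights for Gjc3 at P30), and the exact two-sided permutation test of the gene alone gave p = 0.0195, 0.00216 being the smallest that splits of 12 libraries can give.

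The connexins of astrocytes, Gja1 and Gjb6, had log2 fold changes of 0.09 ± 0.46 and 0.62 ± 0.24 (adjusted p = 0.956 and 0.317).

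Among the membrane and cytoskeleton genes, Cmtm5 was the most abundant of the 9 at P30. It ranged from 48.6 to 86.7 FPKM in WT (median 72.0) and from 23.4 to 42.8 FPKM in Kdm6b-cKO (median 30.3). Every Kdm6b-cKO library lay below every WT library, and library 5 was the highest of the Kdm6b-cKO group. The mean fell to 44.2% of the WT mean, a difference of -1.17 ± 0.18 on the log2 scale (adjusted p = 0.0204), with p = 0.00216 in the exact permutation test. Cmtm5 had been picked out by the study from these same libraries, so its call is not independent evidence of its direction. Cmtm5 at P30 lost the adjusted threshold in 6 of 12 fits with 1 library left out, with adjusted p = 0.0681 without WT library 2, 0.0624 without WT library 3, 0.0580 without WT library 4, 0.0608 without WT library 5, 0.0513 without Kdm6b-cKO library 0 and 0.0504 without Kdm6b-cKO library 1. The fold change itself stayed between -1.28 and -1.09 in those 12 fits.

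Ppp1r14a had the largest fall of the 9. Its level ran from 27.5 to 49.6 FPKM in WT (median 33.5) and from 3.55 to 19.1 FPKM in Kdm6b-cKO (median 7.68). The groups did not overlap, although Kdm6b-cKO library 4, one of the shallow libraries, stood well above the other 5. These values rest on 48 to 126 reads per WT library and 3 to 29 per Kdm6b-cKO library. Ppp1r14a had a log2 fold change of -2.11 ± 0.33 (limma, adjusted p = 0.0204), a fall to 25.7% of the WT mean, and the exact permutation test gave p = 0.00216. The adjusted p of Ppp1r14a at P30 rose above 0.05 in 5 of 12 fits with 1 library left out, to 0.0681 without WT library 2, 0.0595 without WT library 3, 0.0580 without WT library 4, 0.0608 without WT library 5 and 0.0513 without Kdm6b-cKO library 0, with fold changes from -2.36 to -1.88 throughout. Its relatives Ppp1r14b and Ppp1r14c, which encode other inhibitors of the same kind, had log2 fold changes of -0.13 ± 0.40 and -0.20 ± 0.27.

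Ermn was lower in most Kdm6b-cKO libraries without passing the adjustment. It ranged from 1.57 to 3.99 FPKM in WT (median 3.48) and from 0.300 to 3.01 in Kdm6b-cKO (median 0.918). Libraries 3 and 5 of the Kdm6b-cKO group reached WT levels and the other 4 lay below all WT libraries. The log2 fold change was -1.44 ± 0.50 (adjusted p = 0.249, exact permutation p = 0.0260), from 402 reads in WT and 127 in Kdm6b-cKO. Tspan2, a tetraspanin, showed the smallest difference of the 9. It ranged from 0.643 to 4.17 FPKM in WT (median 1.88) and from 0.485 to 2.48 in Kdm6b-cKO (median 1.89), and the groups overlapped over most of their range. Its log2 fold change of -0.27 ± 0.50 (adjusted p = 0.864) had a 95% interval from -1.35 to 0.80, so a fall of more than 2-fold was within it. Of 16 tested family relatives of the 9 genes other than connexins (among them Cmtm, Ppp1r14, tetraspanin and Hapln genes), 10 had a negative log2 fold change, the median was -0.12 and none passed the adjustment.

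Hapln2, the link protein of the node, followed Cmtm5 in abundance. WT libraries held 18.5 to 65.5 FPKM (median 40.4) and Kdm6b-cKO libraries 3.93 to 21.7 FPKM (median 11.6). Only Kdm6b-cKO library 2 reached above the lowest WT library, library 1, and the other 5 lay below all of WT. The mean was 28.5% of the WT mean and the log2 fold change -1.91 ± 0.39, with an adjusted p of 0.0567 just outside the threshold and an exact permutation p of 0.00433. Reads were many (3006 in WT and 612 in Kdm6b-cKO). Hapln2 at P30 passed the adjusted threshold when WT library 1 or Kdm6b-cKO library 2 was left out (adjusted p = 0.0497 and 0.0340). Of 9 genes of the perinodal matrix and the node that were tested, 4 had a negative log2 fold change, the median was 0.03 and none passed the adjustment.

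Aspa, the N-acetylaspartate hydrolase, was spread widely in Kdm6b-cKO. It ran from 5.41 to 12.1 FPKM in WT (median 6.00) and from 0.287 to 8.20 in Kdm6b-cKO (median 1.85). Kdm6b-cKO library 5 lay above 5 of the 6 WT libraries, while the other 5 lay below all of them, down to 1 read each in libraries 3 and 4. The log2 fold change was -2.08 ± 0.64 (adjusted p = 0.202, exact permutation p = 0.0130). Of 10 genes that make, move or use N-acetylaspartate, aspartate and acetate, 5 had a negative log2 fold change, the median was -0.01 and none passed the adjustment. Trf ranged from 11.2 to 53.5 FPKM in WT (median 17.6) and from 3.95 to 17.0 in Kdm6b-cKO (median 10.2). The groups overlapped, since 3 of the 6 Kdm6b-cKO libraries lay above the lowest WT library and WT library 0 stood far above the rest. The log2 fold change of Trf was -1.10 ± 0.39 (adjusted p = 0.264, exact permutation p = 0.0216). Of 7 iron-handling genes tested, 5 had a negative log2 fold change, with a median of -0.20, and none passed the adjustment. Ftl1 and Fth1, the ferritin chains, had log2 fold changes of -0.72 ± 0.26 and -0.70 ± 0.35 (adjusted p = 0.263 and 0.436).

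The falls at P30 were ranked by log2 fold change, from Ppp1r14a through Aspa, Hapln2, Ermn, Cmtm5, Trf, Gjb1 and Gjc3 to Tspan2. Among all 13289 genes ordered from the largest fall, Ppp1r14a took place 128, Aspa 135, Hapln2 173, Ermn 329 and Cmtm5 492. Trf took place 569, Gjb1 892, Gjc3 1136 and Tspan2 3814. No neighbours in this order differed beyond their spread. Neighbours were formed by sorting on these same fold changes, so small differences between them were built in. Genes farther apart in the order were not tested against each other. Over the 8 neighbouring pairs, exact two-sided permutation tests of the difference between the pair's fold changes gave p-values from 0.225 (Gjc3 against Tspan2) to 0.961 (Ppp1r14a against Aspa), all 0.961 after Benjamini-Hochberg adjustment. Differences in fold change between neighbours ran from -0.03 ± 0.76 (Ppp1r14a minus Aspa) to -0.47 ± 0.67 (Hapln2 minus Ermn) on the log2 scale, and 5 of the 8 changed sign with a pseudocount of 1 or 0.01. The order by fold change was not the order by strength of the test, since Aspa stood second with a standard error of 0.64 and Cmtm5, 3 places lower, with one of 0.18.

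**Figure D2:**
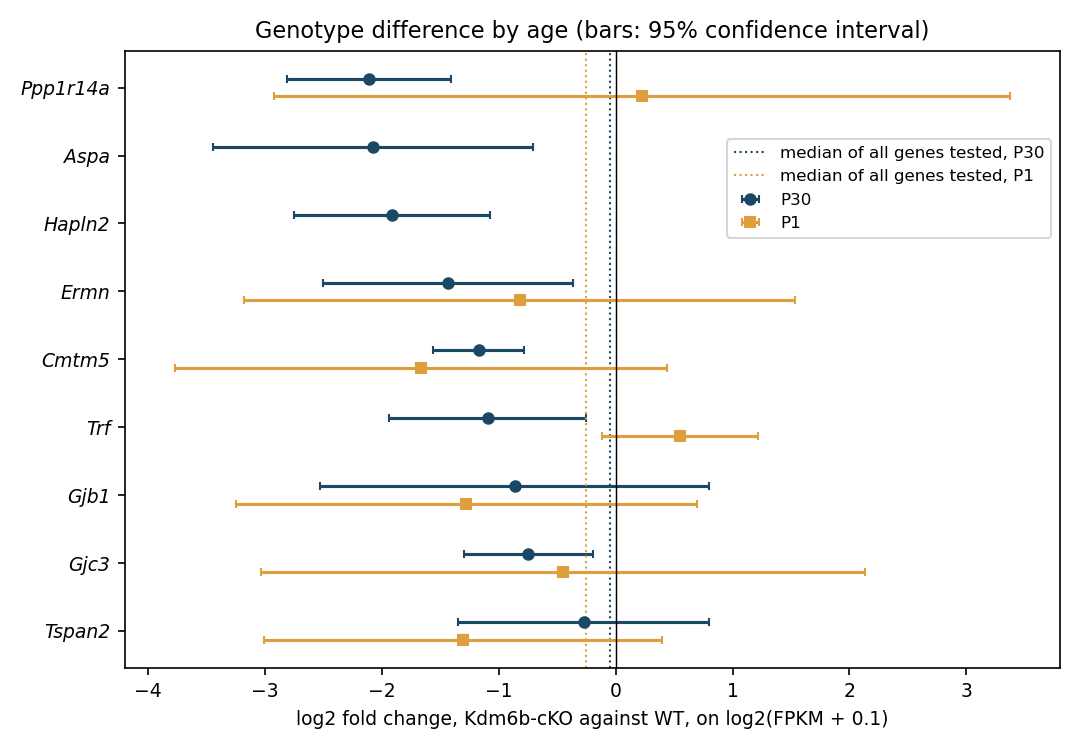
Log2 fold change of Kdm6b-cKO against WT (horizontal axis, on log2(FPKM + 0.1)) for each gene, in the order of its fall at P30; circles are P30, squares are P1, bars are 95% confidence intervals and dotted lines are the medians of all genes tested. All 9 P30 values lie below 0, and of the 7 P1 values 5 lie below 0 with intervals that include it, as do those of Ppp1r14a and Trf.

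The sample composition and depth of the P30 libraries moved with genotype in several ways. Kdm6b-cKO libraries 2, 3 and 4 were shallow, at 1940000 to 2660000 reads, and also had over 1000 FPKM of the 45S precursor. Among the 9 libraries above 5000000 reads (6 WT and 3 Kdm6b-cKO), where the smallest exact p is 0.0119, Cmtm5 (-1.06), Ppp1r14a (-1.99) and Hapln2 (-1.62) showed no overlap between genotypes (exact p = 0.0119 each), which for Hapln2 was not so over all 12 libraries. Groups of fewer libraries separate more easily, and the share of all genes without overlap in these 9 libraries was not counted. Gjc3 differed by -0.77 there (exact p = 0.0357) and Ermn by -1.06 (exact p = 0.0595). Aspa moved to -0.75 (exact p = 0.131), Trf to -0.50 (p = 0.321), Gjb1 to -0.34 (p = 0.643) and Tspan2 to 0.35 (p = 0.512), so the falls of Aspa and Trf were smaller without the 3 shallow libraries.

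Within the 8 libraries with over 1000 FPKM of the 45S precursor (5 WT and 3 Kdm6b-cKO), where the smallest exact p is 0.0179, the log2 differences were -1.22 for Cmtm5, -2.13 for Ppp1r14a, -3.24 for Aspa and -1.41 for Trf, each at p = 0.0179. The share of all genes that reached this smallest p in these 8 libraries was not counted. Hapln2 differed by -2.05 (exact p = 0.0357). The remaining 4 genes differed by -1.74 (Ermn), -1.13 (Gjb1), -0.66 (Gjc3) and -0.65 (Tspan2), with exact p-values from 0.0536 to 0.411. The other side of this split held 1 WT library and 3 Kdm6b-cKO libraries, and its smallest exact p of 0.25 passes no threshold. There all 9 genes were lower in Kdm6b-cKO on average than in that WT library, library 0. Library 0 was the highest WT library for 7 of the 9 genes, and the share of all genes lower there was not counted.

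**Figure D3:**
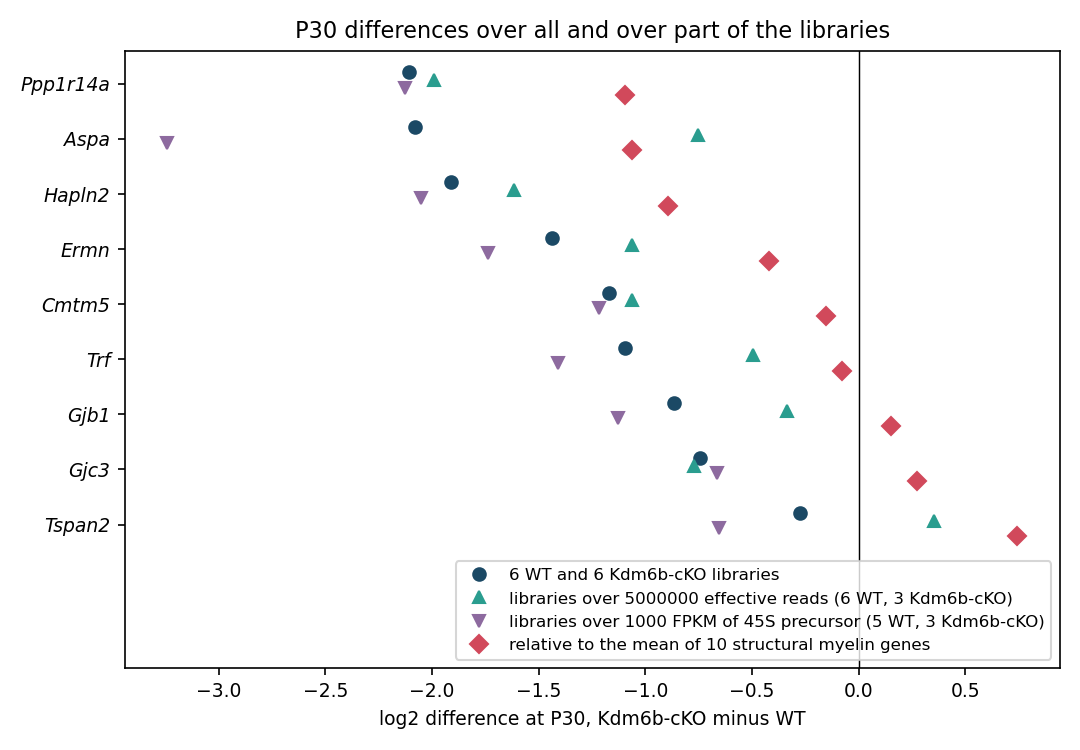
Log2 difference of Kdm6b-cKO minus WT at P30 (horizontal axis) for each gene over all 12 libraries (circles), over the 9 deeper libraries (upward triangles), over the 8 libraries with over 1000 FPKM of the 45S precursor (downward triangles) and relative to the mean of 10 structural myelin genes (diamonds). Ppp1r14a and Hapln2 stay below -0.8 in all 4, while Tspan2, Gjb1 and Gjc3 cross 0, Gjb1 and Gjc3 only relative to structural myelin.

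Markers of cells outside the Emx1 lineage were read in the same P30 libraries. Summed FPKM of 14 markers of GABAergic neurons was 60.0 to 585.6 in WT (median 131.4) and 232.6 to 424.2 in Kdm6b-cKO (median 343.9). All 11 of them that were tested had a positive log2 fold change (median 1.54, none past the adjustment). Of these 11, 7 had an unadjusted limma p under 0.05, as did 709 of all 13289 genes on the higher side. The sum of 12 microglia markers was 14.6 to 54.2 in WT and 22.6 to 60.1 in Kdm6b-cKO (median log2 fold change 0.86 over 8 tested). Their part in the falls of the 9 genes was not tested. The 3 tested markers of endothelial and mural cells and the 3 of choroid plexus had median log2 fold changes of 0.68 and 0.41. WT libraries 0 and 1 had GABAergic sums above those of the other 4 WT libraries. Library 0 was the highest WT library for 7 of the 9 genes and library 1 the lowest for 6.

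Genes from several stages of the oligodendrocyte lineage were set beside the 9. Of 10 structural myelin genes, all 10 had a negative log2 fold change at P30, with a median of -0.93, and 2 passed the adjustment, Mag (-1.59 ± 0.19, adjusted p = 0.00538) and Mbp (-1.27 ± 0.20, adjusted p = 0.0204). Of 26 other genes of mature oligodendrocytes tested, 21 were negative with a median of -0.63, and 2 passed, among them Carns1, which encodes carnosine synthase (-1.24 ± 0.19, adjusted p = 0.0204). Of 8 lineage factors tested, 6 were negative and Sox10 passed (-1.46 ± 0.23, adjusted p = 0.0204). Mag, Mbp and Sox10 had also been picked out by the study from these libraries, and Sox10 at P30 lost the adjusted threshold without WT library 2, 3, 4 or 5 or Kdm6b-cKO library 0 (adjusted p = 0.0513 to 0.0681). Of 8 genes of committed and pre-myelinating oligodendrocytes 3 were negative (median 0.19), and of 15 precursor genes 9 were negative (median -0.07), and none of these 23 passed the adjustment. Among 16 astrocyte genes 12 were negative (median -0.10) with none past the adjustment, and among 16 genes of glutamatergic neurons 11 were negative (median -0.28) with Slc17a6 past it (-2.98, adjusted p = 0.0408).

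**Figure D4:**
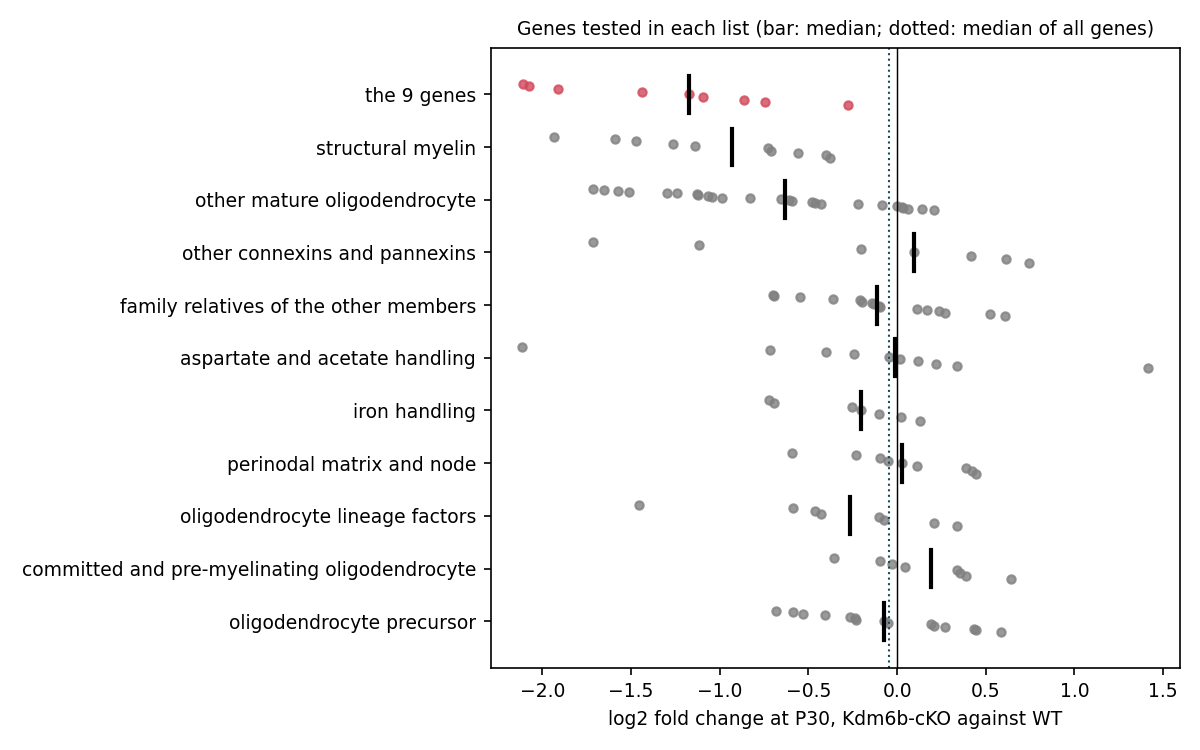
Log2 fold change of Kdm6b-cKO against WT at P30 (horizontal axis) of each gene tested in the set of 9 and in 10 comparison lists; points are genes, thick bars are medians and the dotted line is the median of all genes tested. The medians of the 9 genes, of structural myelin and of other mature oligodendrocyte genes lie at -1.17, -0.93 and -0.63, and those of the other lists lie between -0.27 and 0.19.

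To compare the 9 genes with the sheath proteins, each gene's log2 level was taken relative to the mean of the 10 structural myelin genes in the same library. That mean itself differed by -1.02 on the log2 scale, Kdm6b-cKO minus WT (exact permutation p = 0.00433). Relative to it, Ppp1r14a differed by a further -1.09 ± 0.34 (adjusted p = 0.0179, exact permutation p = 0.0173) and Hapln2 by -0.89 ± 0.31 (adjusted p = 0.0297, exact permutation p = 0.0260), where 0.128% of all genes passed on the lower side. Relative to this mean, the 10 structural genes themselves ran from -0.92 ± 0.40 (Opalin) to 0.64 ± 0.29 (Cnp). Hapln2 thus did not fall beyond all of them. Ppp1r14a passed in all 12 fits with 1 library left out. Hapln2 at P30 relative to structural myelin did not pass without WT library 2, 3 or 5 (adjusted p = 0.0604, 0.0557 and 0.0510) or without Kdm6b-cKO library 0, 3 or 4 (0.0524, 0.0664 and 0.0579). Aspa differed by -1.06 ± 0.51 (adjusted p = 0.0866) and Tspan2 by 0.74 ± 0.45 (adjusted p = 0.160). Aspa at P30 relative to structural myelin passed with a 45S term (-1.50, adjusted p = 0.00617) and without Kdm6b-cKO library 5 (-1.44, adjusted p = 0.0181), but was -0.0442 in the 9 deeper libraries (adjusted p = 0.929). Tspan2 at P30 relative to structural myelin passed with a pseudocount of 1 (adjusted p = 0.0379) and with limma's array weights (0.98, adjusted p = 0.0110). Cmtm5 at P30 relative to structural myelin differed by -0.16 ± 0.26, with a 95% interval from -0.71 to 0.40, and passed with array weights (-0.47, adjusted p = 0.0185). Ermn (-0.42 ± 0.51), Trf (-0.08 ± 0.26), Gjb1 (0.15 ± 0.66) and Gjc3 (0.27 ± 0.33) did not pass either, and each of these 4 changed sign under at least 1 other way of processing. On this scale 52% of all genes passed on the higher side, which follows from the fall of the reference. So many low p-values ease the Benjamini-Hochberg threshold for every gene. Passing on this scale is therefore weaker evidence than passing without the reference. Unadjusted limma p-values relative to structural myelin were 0.00528 for Ppp1r14a and 0.0120 for Hapln2. On the lower side, 34 of 13289 genes had an unadjusted p under 0.05.

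Likeness across the 12 P30 libraries, which share genotype and depth, is given as a description. The mean standardized log2 level of the 9 ran from -0.14 to 1.35 in WT and from -1.08 to 0.17 in Kdm6b-cKO, so that Kdm6b-cKO library 5 lay above WT library 1. Pearson's r of each gene with this mean, which contains the gene itself and so raises r, was highest for Cmtm5 (0.94) and Trf (0.92) and lowest for Gjb1 (0.57) and Tspan2 (0.58). With the mean of each genotype taken off, r was 0.92 for Trf and 0.82 for Cmtm5 but 0.11 for Ppp1r14a and 0.34 for Gjc3. The 8 other genes with the highest r were Vamp2 (0.95), Ly6e, Adam33, Ddn, Mog, Kcna1, Sgcz and Hsf1 (0.92), with r from 0.74 to 0.85 once genotype means were taken off. Of these, Mog is a myelin gene, and Adam33 (log2 fold change -1.47, adjusted p = 0.0474) and Sgcz (-1.61, adjusted p = 0.0204) passed the adjustment.

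At P1, before most cortical oligodendrocytes have matured, most of the 9 genes were low and none was called, as was no gene among the 16250 tested (percent called 0, with 2352 genes at an unadjusted p under 0.05). Aspa and Hapln2 did not pass the filter of a mean of 1 FPKM over the 12 libraries. Of the 7 genes tested, 5 had a negative log2 fold change (63.2% of all genes did) and 3 were below -1 (20.4%), with a median of -0.82 against -0.25 over all genes. None of the 7 had an unadjusted p under 0.05 (7.77% of all genes did on the lower side). No gene of the comparison lists passed the adjustment at P1.

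**Figure D5:**
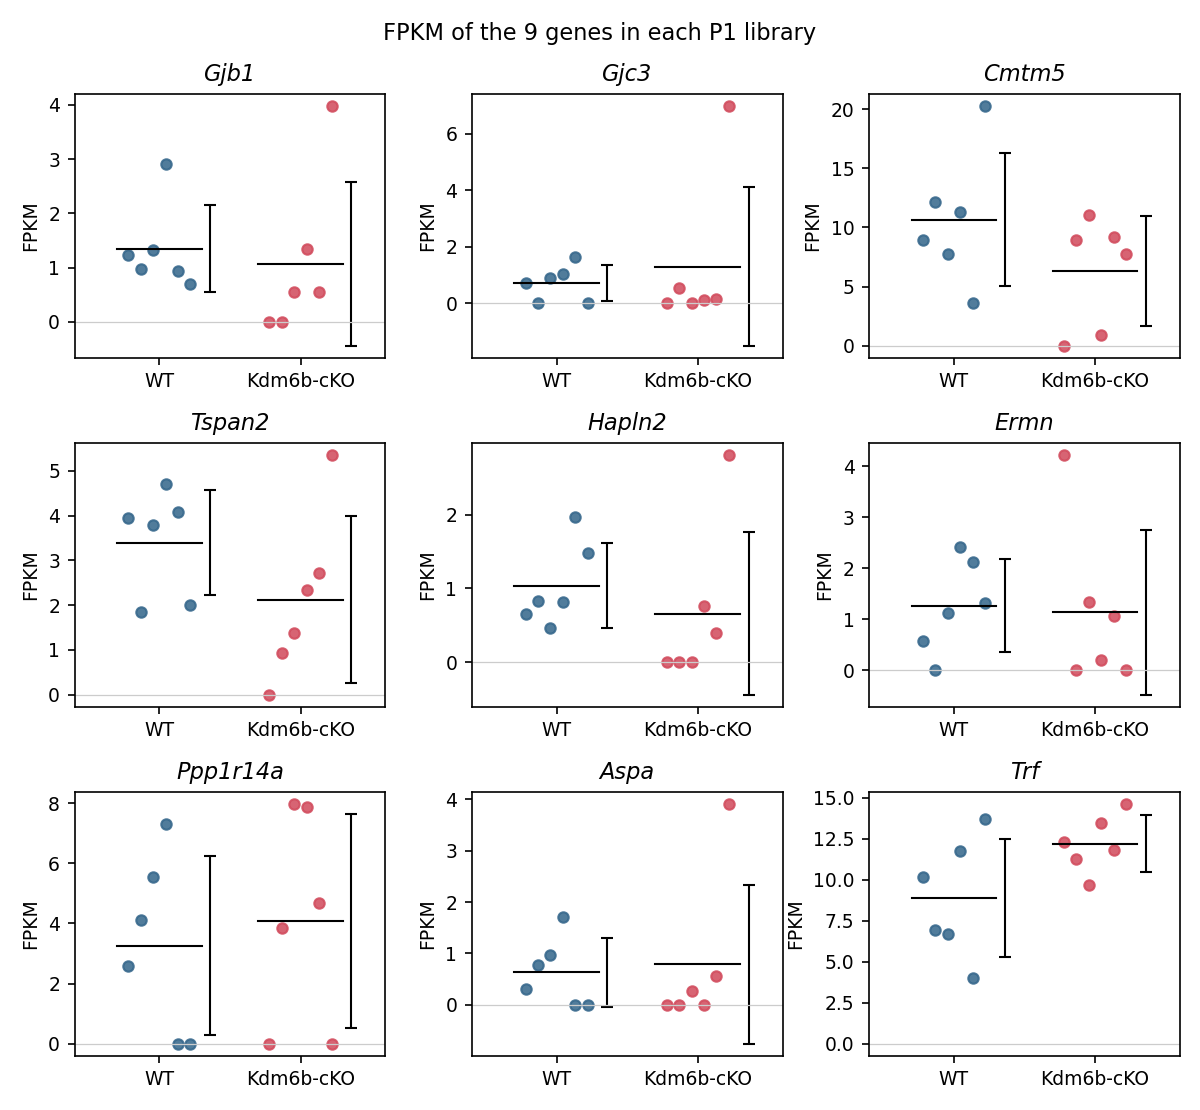
FPKM of each of the 9 genes (vertical axes, each with its own range) in the 6 WT and 6 Kdm6b-cKO libraries at P1; points are libraries, horizontal lines are means and bars to the right are the SD, which reach below 0 where 1 library dominates. The groups overlap for all 9 genes, and single high Kdm6b-cKO libraries set the means of Gjc3 and Aspa.

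Of the 54 values of these genes in each genotype at P1, 7 in WT and 16 in Kdm6b-cKO were 0. Kdm6b-cKO library 0 was the lowest of its group, or tied for it, for 7 of the 9 genes, and Kdm6b-cKO library 5 was the highest for 6. These are the 2 shallowest libraries, where a single read weighs most. The 3.92 FPKM of Aspa and the 2.81 FPKM of Hapln2 in library 5 were 1 read each, and the 4.23 FPKM of Ermn in library 0 was 5 reads. Over all 6 libraries, Aspa had 11 reads in WT and 4 in Kdm6b-cKO, Hapln2 had 19 and 7, Ppp1r14a had 14 and 19, and Ermn had 36 and 30, so a difference in these 4 genes was not detectable at this depth.

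Cmtm5, Trf and Tspan2 had the highest WT medians at P1. Cmtm5 ranged from 3.61 to 20.3 FPKM in WT (median 10.1) and from 0 to 11.1 in Kdm6b-cKO (median 8.31), with library 0 at 0 and library 3 at 0.896. Its log2 fold change was -1.67 ± 0.99 (adjusted p = 0.453). Tspan2 ran from 1.85 to 4.71 FPKM in WT (median 3.86) and from 0 to 5.36 in Kdm6b-cKO (median 1.86), and differed by -1.30 ± 0.80 on the log2 scale (adjusted p = 0.469). Trf was higher in Kdm6b-cKO, at 9.68 to 14.7 FPKM (median 12.1) against 4.00 to 13.7 in WT (median 8.58). The log2 fold change of Trf was 0.55 ± 0.31 (adjusted p = 0.435, exact permutation p = 0.0779), and no Kdm6b-cKO library lay below the WT median. Choroid plexus also makes transferrin, and its markers had values in these libraries although sorting for GFP-positive nuclei of the Emx1 lineage is meant to leave such cells out. The summed FPKM of 8 choroid plexus markers was 66.7 to 543.7 in WT and 279.4 to 956.3 in Kdm6b-cKO, most of it Ttr, which encodes transthyretin (63.6 to 521.3 and 232.3 to 926.9 FPKM). Of the 8, 3 were negative, with a median log2 fold change of 0.06, and their part in the P1 level of Trf was not tested. The connexins Gjb1 (0.699 to 2.91 FPKM in WT, 0 to 3.99 in Kdm6b-cKO) and Gjc3 (0 to 1.64 and 0 to 7.01) had log2 fold changes of -1.28 ± 0.93 and -0.45 ± 1.21 (adjusted p = 0.538 and 0.879). Among the 8 libraries above 1000000 reads (5 WT and 3 Kdm6b-cKO), Cmtm5 differed by -1.29 (exact permutation p = 0.161) and Trf by 0.28 (p = 0.375), where 0.0179 is the smallest p. Within the 7 libraries with few olfactory receptor genes above 0 (2 WT and 5 Kdm6b-cKO), Cmtm5 differed by -2.09 (exact permutation p = 0.429) and Trf by 0.46 (p = 0.0952), and with 1 Kdm6b-cKO library the other side of that split had a smallest p of 0.2.

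The genotype effect was then compared between ages over the 24 libraries. The tables of the ages were normalized separately, so only genotype differences, not levels, were compared. None of the 9 genes passed the adjustment, as 0.00674% of 14828 genes did. The effect at P30 minus that at P1 was negative for 6 of the 9 and positive for 3, with a median of -0.29 against 0.17 over all genes. Trf, which was higher in Kdm6b-cKO at P1 and lower at P30, had the only unadjusted p under 0.05 (5.58% of all genes on the negative side and 6.82% on the positive), with a difference of -1.65 ± 0.50 (adjusted p = 0.202). Ppp1r14a (-2.34 ± 1.61), Aspa (-1.61 ± 1.29) and Tspan2 (1.03 ± 0.97) had adjusted p-values from 0.562 to 0.688. Cmtm5 (0.49 ± 1.08), Gjb1 (0.41 ± 1.20), Gjc3 (-0.29 ± 1.17), Hapln2 (-0.26 ± 0.94) and Ermn (-0.62 ± 1.21) each had standard errors above their differences. Calls at P30 and not at P1 for Cmtm5 and Ppp1r14a are therefore not shown to differ between ages.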

How the data were processed

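The authors aligned reads to mm9 with HISAT2 and deposited, per age, FPKM per gene and library with Cuffdiff, scaled so that upper quartiles are alike. Their table of Cuffdiff comparisons (fold changes, p-values) was not used. All 24 columns of values could be assigned to a group, although their numbers could not be matched to single sample labels. The 9 genes, the comparison lists and the motifs were chosen with earlier results of these data known.

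limma 3.58.1 in R 4.3.3 (lmFit, eBayes with an intensity trend, two-sided) was fitted at each age to log2(FPKM + 0.1) of genes whose 12-library mean reached 1 FPKM, and p-values were adjusted by Benjamini-Hochberg across all of them. Single genes were compared by exact two-sided permutation over all splits of 12 libraries. The fit was tested on simulated data with independent noise and large falls, without the unequal depth of these libraries. That test therefore does not show how reliable the calls here are. Python 3.11.15 and matplotlib 3.10.9 made the remaining values and figures.

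Named genes were the 9 genes, Kdm6b, Sox10, Mag and Mbp, list genes with an adjusted p under 0.05, and the 8 genes most correlated with the 9 at P30, and one gene that this rule names is not reported here. Other list genes (Gja1, Gjb6, Ppp1r14b, Ppp1r14c, Fth1, Ftl1, Ttr, Opalin and Cnp) were named after their values were seen. For the difference between ages all 24 libraries were used. Alternatives were other pseudocounts, filters, scalings and limma settings, added terms and libraries left out. Depth was estimated from genes with a single transcript. Reads per gene were recovered only where values fitted whole reads within 0.03 and both ages gave the same transcript length within 5%. No libraries were identical.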

Additional observations from a re-analysis of the deposited data

Results flagged for a closer look

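Of 36 groups of 6 libraries (9 genes, each genotype and age), 8 had 1 library farther from the rest than Dixon's 95% critical value. For normally distributed values, chance gives this in about 1 of 20 groups. FPKM are skewed, some groups hold zeros and groups share libraries, so that rate is not a fair measure here. At P1, 6 of these were flagged. In the WT group the highest Gjb1 level was 2.91 FPKM, in library 3. In Kdm6b-cKO library 5, the shallowest, Gjb1 stood at 3.99 FPKM, Gjc3 at 7.01, Aspa at 3.92 and Hapln2 at 2.81, and in Kdm6b-cKO library 0 Ermn stood at 4.23 FPKM. The Aspa and Hapln2 values were 1 read each and that of Ermn 5 reads. At P30, WT library 0 was far above the other WT libraries for Aspa (12.1 FPKM) and Trf (53.5 FPKM). No such library was found for Cmtm5, Ppp1r14a or Tspan2.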

How the results depend on the processing

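At P1 depth limits the comparison of Aspa, Hapln2, Ppp1r14a and Ermn, each with under 40 reads per genotype, and none of the 9 genes was called under any alternative. At P30, all 9 stayed negative under every alternative except Tspan2, which turned to 0.25 with array weights and 0.35 in the deeper libraries. The 2 members called lower, Cmtm5 and Ppp1r14a, became 5 with a 45S term (Hapln2, Aspa and Trf added) and 0 with the replicate block, where both had an adjusted p of 0.131 at fold changes of -1.17 and -2.11, as without it. Of all 13289 genes, 30 were called lower, against 365 with the 45S term and 0 with the replicate block. The rise to 5 members thus came with a rise across the whole table. The labels do not say whether equal library numbers mark pairs. Correlations of same-numbered libraries ran from -0.30 to 0.33 at P30 and from -0.18 to 0.23 at P1, which can neither show nor exclude pairing. Whether the block tests true pairs is therefore not known. With 1 library left out, 0 to 3 of the 9 were called at P30 and 0 to 0 at P1. Over all genes, 1 to 33 were called lower at P30 and 0 to 27 at P1 in those fits. Gjc3 at P30 passed with array weights (adjusted p = 0.0117), and relative to structural myelin Cmtm5 passed in 1 alternative, Tspan2 in 2 and Aspa in 1, beside 1 fit without a library. Hapln2 at P30 passed in 6 other alternatives (adjusted p from 0.00114 to 0.191 over all of them). The deeper-library and depth-weighted fits were chosen after seeing the data.

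The genes called at P30 numbered 37, and 530 with array weights, 0 with the replicate block, 550 with a 45S term, 415 in the deeper libraries, 62 with depth weights and 2 to 43 with 1 library left out. For genes called at P1 the count was 0, against 1 without a trend, 410 with depth weights and 0 to 51 with 1 library left out. The genes called at P30 relative to structural myelin numbered 5115, against 2971 with array weights, 8305 with a 45S term, 2974 in the deeper libraries, 2016 with the other mature oligodendrocyte genes as reference and 3112 to 6691 with 1 library left out. Of genes whose genotype effect differs between ages 1 passed, against 6 with a pseudocount of 1, 2 without a filter, 3 with a mean of at least 5 FPKM, 0 with quantile normalization, without a trend or with the replicate block, 444 with array weights and 0 to 75 with 1 library left out. Causes were not tested.

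Signs turned in values that passed no threshold. At P1, Gjc3 turned to 1.07 with quantile normalization and 0.91 with an olfactory receptor term, Ermn to 0.49 with quantile normalization and 0.30 with depth weights, and Ppp1r14a to -1.31 with an olfactory receptor term and ran from -0.51 to 1.01 with 1 library left out. Relative to structural myelin, Ermn turned to 0.0158 with a pseudocount of 1. Gjb1 turned to -0.37 with a pseudocount of 0.01, -0.0169 with a 45S term and -0.14 with the other reference, and ran from -0.23 to 0.67 with 1 library left out. Gjc3 turned to -0.15 with array weights, -0.0625 in the deeper libraries and -0.0193 with the other reference, and ran from -0.0219 to 0.39. Trf turned to 0.18 with array weights, 0.21 in the deeper libraries and 0.0289 with depth weights, and ran from -0.18 to 0.0464. Between ages, Cmtm5 turned to -0.13 with a pseudocount of 1 and -0.10 with array weights (-0.49 to 0.87 with 1 library left out), Gjb1 to -0.0128 with a pseudocount of 1 and -0.50 with quantile normalization (-0.0748 to 1.06), Hapln2 to 1.33 with a pseudocount of 0.01 (-0.60 to 0.37), Gjc3 to 0.30 with array weights (-0.67 to 0.56), and Ermn ran from -1.10 to 0.0303. In the order of falls, a pseudocount of 0.01 gave 0.0793 for Ppp1r14a minus Aspa and 0.30 for Trf minus Gjb1, and a pseudocount of 1 gave 0.36 for Aspa minus Hapln2, 0.27 for Ermn minus Cmtm5 and 0.29 for Gjb1 minus Gjc3.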
